A study of Mus musculus with 12 samples.

Results

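Bone marrow macrophages of Commd1 wildtype mice that had been exposed to lipopolysaccharide (LPS) for 24 h were compared with those exposed for 3 h, to describe the passage from the early to the late phase of the response. The 4 samples, taken by their titles from the 12 of the study, were 2 of wildtype cells given LPS for 24 h and 2 of wildtype cells given LPS for 3 h. They came from 2 individual mice, and the culture of each mouse had been divided over both times and an untreated sample, so that mouse 1 and mouse 2 each stand in every wildtype group. The cultures had grown from marrow over 10 days in medium that held GM-CSF at 20 ng/ml, and LPS of Escherichia coli had been added at 10 ng/mL. Cultures of 2 Commd1 knockout mice, treated in the same way for 24 h and 3 h, are set beside the wildtype values at the end. The labels give neither the age nor the strain of the mice.

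LPS is sensed by the receptor TLR4 with its partners CD14 and MD-2. Adaptors of the MyD88 branch activate NF-kB and MAP kinases, which switch on cytokine, chemokine and feedback genes at once, and the TRIF branch activates IRF3 and the gene of interferon beta. Secreted interferon beta then acts back on the cells through STAT2 and IRF9, among others, and drives a second wave of antiviral genes. Many early transcripts are short-lived and are removed by decay factors such as tristetraprolin and regnase-1, while inhibitors made in the first hours restrain the pathways that induced them. GM-CSF cultures of marrow hold macrophage-like cells and also cells with dendritic cell features.

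Each sample was hybridised to its own single-colour array, and a level here is the log2 of the processed signal relative to the array's 75th percentile. The pair of levels given for a time is that of mouse 1 and mouse 2, and the size of a rise or fall is the log2 change, 24 h minus 3 h. Levels of different genes come from different probes and are not compared with each other. Of the probes, 68.0% and 65.1% were well above background at 24 h and 69.9% and 69.2% at 3 h, and replicate arrays of a group correlated with r between 0.994 and 0.997 across genes, which are not independent replicates. Each time lay on a slide of its own, so what a slide and what the time of LPS contribute cannot be told apart. The spike-in controls, RNAs added in known amounts, gave slopes of log2 signal against amount of 0.824 and 0.820 on the 24 h arrays and 0.743 and 0.743 on the 3 h arrays, and where rescaling to a common slope turned a direction the value is given beside the result. The sum of linear levels of the 12 macrophage markers was 805 and 797 at 24 h against 669 and 686 at 3 h, and all 12 were well above background at both times. Of these markers 8 were higher and 2 lower at 24 h at an adjusted p under 0.05, against 25.7% and 26.9% of all genes. The sum is set mostly by the brightest probes and does not show these moves in both directions. Whole cultures were measured, so fewer cells of a type and less RNA per cell cannot be told apart. The number of arrays limits the precision, and with 2 arrays against 2 an exact permutation test cannot go below p = 0.333, so the spread was pooled over all genes and groups in limma. Values after ± are standard errors from that fit (n = 2 arrays per group), and p-values are adjusted by Benjamini-Hochberg over all genes tested.

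Of 22975 genes tested, 5909 (25.7%) were higher and 6170 (26.9%) lower at 24 h than at 3 h at an adjusted p under 0.05, and 12079 (52.6%) differed in either direction. A change of at least 2-fold was called for 2160 genes (9.4%) upwards and 2454 (10.7%) downwards, 4614 (20.1%) in all. The median change over all genes was -0.039 on the log2 scale. With normexp background correction 59.9% of the called genes were higher in place of 48.9%, and the median became 0.14; after rescaling to a common spike-in slope these values were 56.2% and 0.17. Of the called genes 12045 moved the same way in both mice, which largely follows from the call, since it rests on the same 2 mice. At 24 h 483 of the genes called lower were below background on both arrays, and at 3 h this held for 205 of those called higher. Their folds are given as minimum values, against the lowest signal well above background on an array or the probe's own reading where that is higher. Since 82.2% of all genes tested had values that did not overlap between the groups, an absence of overlap says little of any single gene. It holds for every gene named below as higher or lower. With 25.7% of genes called higher and 26.9% lower, counts near these shares in a list below say nothing of that list, although its named members are given by their own values. The lists and their members were chosen with earlier results of these data known. A count far from these shares therefore describes the members chosen and is not a test of a pathway.

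The largest rises included surface proteins of the Ly6 family and cytokine receptor subunits. Ly6a, which encodes the stem cell antigen Sca-1, had levels of 2.75 and 2.72 at 24 h against -4.28 and -4.01 at 3 h (probe at mm9 chromosome 15, 74825553 to 74825612), a rise by 6.88 ± 0.22 (adjusted p = 2.74e-07). Ly6c1 had 3.92 and 3.99 at 24 h against -2.63 and -2.26 at 3 h and rose by 6.40 ± 0.25, while the change over its probes ran from 1.11 to 6.40. Ly6f was below background at 3 h, and its 62.8-fold rise is taken against its own 3 h readings, so it is not a firm minimum. 9030619P08Rik rose by 4.93 ± 0.16. The probes of these 4 genes lie within the Ly6 gene cluster of chromosome 15, and cross-hybridisation between such related genes was not resolved. Il23r, the ligand-specific subunit of the interleukin-23 receptor, had -0.00334 and -0.049 at 24 h against -6.38 and -6.91 at 3 h (probe at mm9 chromosome 6, 67372966 to 67373025) and rose by 6.62 ± 0.20 (adjusted p = 2.42e-07). Its 3 h level in mouse 2 lay near the lowest signal well above background on that array, so the size of this rise is uncertain. Il12rb1, the subunit that the receptors of interleukin-12 and interleukin-23 share, had 3.33 and 3.46 at 24 h against -2.07 and -1.80 at 3 h and rose by 5.33 ± 0.13, while the change over its probes ran from 3.64 to 5.33. Slfn4, a Schlafen family gene of myeloid cells, had 3.06 and 2.98 at 24 h against -1.57 and -1.87 at 3 h and rose by 4.74 ± 0.19. F8, the gene of coagulation factor VIII, was below background at 3 h and rose at least 30-fold. Rhov, of a small GTPase, rose by 5.06 ± 0.22, Gm15056 by 4.74 ± 0.25 and Ccdc125 by 4.74 ± 0.19.

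Some of the largest rises were of genes whose 3 h level lay below the untreated level. Tmem86a, which encodes a lysoplasmalogenase, had 3.15 and 3.10 at 24 h against -1.58 and -1.56 at 3 h, and untreated cells had 2.39 and 2.30. Osgin1, an oxidative stress-induced growth inhibitor, had 1.53 and 1.62 at 24 h against -3.23 and -3.17 at 3 h, and untreated cells had 0.65 and 0.38. AU022793 had 2.96 and 3.11 at 24 h against -3.27 and -2.93 at 3 h, and untreated cells had 2.61 and 2.67. The lowest of the 3 times was 3 h in these genes, in Rhov, in C130050O18Rik and in Ccdc125, whereas Il23r, Slfn4, Gm15056, Ly6a and Ly6c1 were lowest in untreated cells.

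The largest falls were of early LPS genes. Olr1, which encodes the scavenger receptor LOX-1, had -7.09 and -7.51 at 24 h against 2.89 and 2.49 at 3 h (probe at mm9 chromosome 6, 129435316 to 129435375), was below background at 24 h and fell at least 736-fold (adjusted p = 1.29e-07). Adamts4, a protease of matrix proteoglycans, had -5.59 and -5.66 at 24 h against 3.25 and 3.21 at 3 h and fell by 8.86 ± 0.16. Rnd1, of a small GTPase, had -0.86 and -0.71 at 24 h against 6.38 and 6.25 at 3 h and fell by 7.10 ± 0.11 (adjusted p = 2.66e-08). Cish and Dusp2, feedback inhibitors of STAT5 and of MAP kinases, fell by 6.41 ± 0.13 and 6.39 ± 0.19. Edn1, the gene of the vasoconstrictor endothelin, fell by 6.35 ± 0.38, Sphk1, which makes sphingosine-1-phosphate, by 6.14 ± 0.19 (-5.24 with its other probe), and Shisa3 by at least 71.9-fold. The 24 h levels of Adamts4, Cish and Dusp2 lay next to those of untreated cells, which were -5.75 and -5.86 for Adamts4, -2.46 and -2.73 for Cish and -0.037 and 0.28 for Dusp2. Rnd1 stayed above its untreated levels of -2.88 and -2.72, as did Il6, Il1b, Edn1 and Cxcl1.

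**Figure D1:**
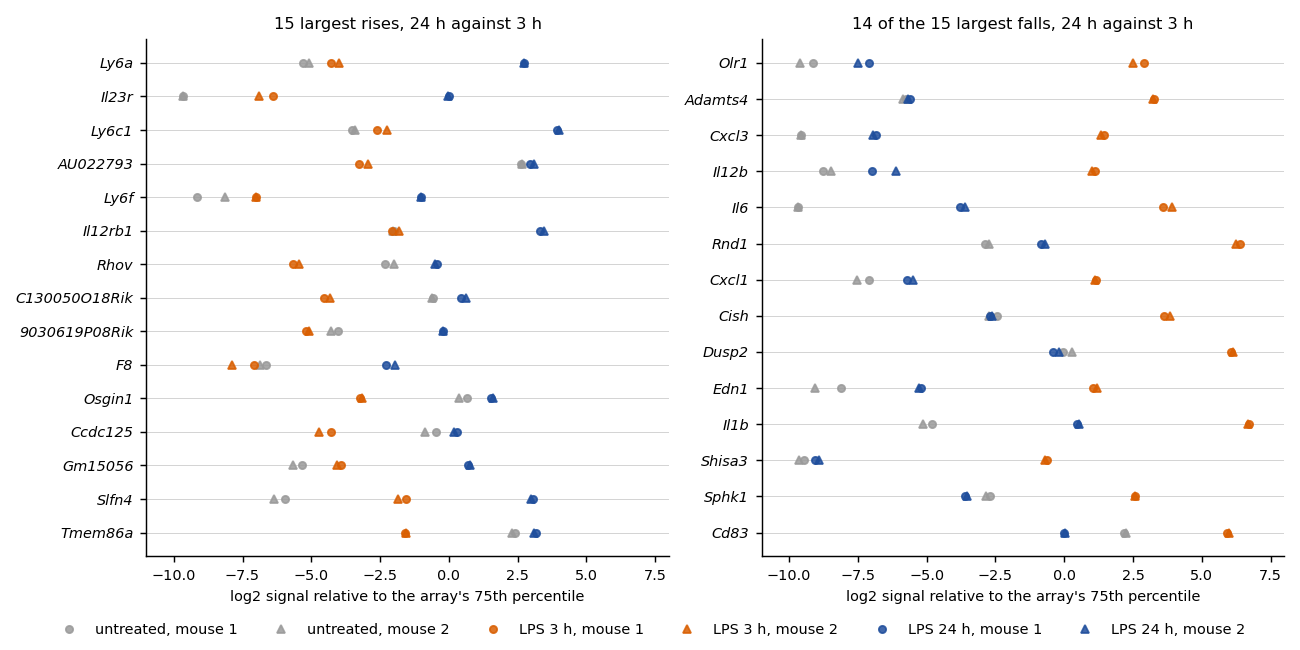
The 15 largest rises (left) and 14 of the 15 largest falls (right) between 3 h and 24 h in wildtype cells, as log2 signal relative to the array's 75th percentile for each mouse and time. Ly6f and F8 at 3 h and Olr1, Cxcl3 and Shisa3 at 24 h were not well above background. Their points there are plotted as read and are neither measured levels nor upper limits, which may hold for some untreated points too. The 24 h and 3 h points are apart in every row, and untreated points lie beside the 24 h points in some rows and beside the 3 h points or beyond in others.

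Cytokine genes were mostly lower at 24 h. Of 29 tested, 23 fell and 2 rose, and the median change was -2.95, with 26.9% of all genes called lower. The median was -1.497 with normexp background correction and -1.40 with only probes detected on all arrays. Tnf, the gene of tumour necrosis factor, had 1.61 and 1.74 at 24 h against 5.45 and 5.56 at 3 h, a fall by 3.83 ± 0.26 or 14.2-fold (adjusted p = 9.3e-06), and untreated cells had -2.65 and -1.80. Il6 had -3.79 and -3.60 at 24 h against 3.59 and 3.92 at 3 h, and Il1b 0.46 and 0.54 at 24 h against 6.72 and 6.69 at 3 h. The genes of the interleukin-12 and interleukin-23 subunits fell together. Il12b, the subunit both cytokines share, had -7.00 and -6.10 at 24 h against 1.11 and 1.02 at 3 h and fell by 7.62 ± 0.33. Its 24 h level in mouse 1 lay next to the lowest signal well above background on that array, so the size of this fall is uncertain. Il12a and Il23a were below background at 24 h and fell at least 3.74-fold and 10.6-fold. The receptor subunits Il23r and Il12rb1 had moved the other way, as given above. Il33, an alarmin, fell at least 61.3-fold to below background, and Csf2, the gene of GM-CSF itself, at least 11.1-fold. Csf1, the growth factor of macrophages, had 0.54 and 0.60 at 24 h against 3.62 and 3.84 at 3 h and fell by 3.16 ± 0.13. Il1a fell by 5.22 ± 0.18, Tnfsf9, a ligand of T cell costimulation, by 5.63 ± 0.27, Il27 by 2.69 ± 0.083 and Il15 by 1.99 ± 0.12.

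A few cytokine genes kept their 3 h level or exceeded it. Osm, the gene of oncostatin M, had -0.33 and -0.44 at 24 h against -1.58 and -1.52 at 3 h and rose by 1.17 ± 0.12 (adjusted p = 6.88e-05). Il1rn, the antagonist of the interleukin-1 receptor, had 3.97 and 3.87 at 24 h against 3.16 and 3.06 at 3 h and rose by 0.81 ± 0.26 (adjusted p = 0.0292), and with the mouse as a block the adjusted p was 0.0519. Without any 1 of the 4 arrays the adjusted p of Il1rn lay between 0.0794 and 0.112. Ifnb1, the gene of interferon beta, had 1.03 and 0.74 at 24 h against 0.81 and 1.42 at 3 h, groups that overlap, and did not pass the test (-0.23 ± 0.23, adjusted p = 0.435). Its untreated readings of -9.67 and -9.67 lay below the lowest signal well above background on those arrays and are not measured levels. At 24 h it was still far above that lowest signal. Il18 had 0.28 ± 0.14 (adjusted p = 0.115) and Ebi3, a subunit of interleukin-27, -0.074 ± 0.12 (adjusted p = 0.644). Il10, an inhibitory cytokine, had 0.15 and -0.097 at 24 h against 0.88 and 0.57 at 3 h and fell by 0.70 ± 0.17 (adjusted p = 0.00772), a call that was lost without wildtype 3 h replicate 1 (adjusted p = 0.0604) and without wildtype 24 h replicate 2 (adjusted p = 0.059).

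Of 23 chemokine genes tested, 14 fell and 2 rose (median -0.98, which became -0.62 with only probes detected on all arrays and -1.56 after rescaling to a common spike-in slope). The largest falls were those of the neutrophil attractants Cxcl3 and Cxcl1. Cxcl3 was below background at 24 h and fell at least 282-fold, Cxcl1 had -5.71 and -5.48 at 24 h against 1.14 and 1.13 at 3 h and fell by 6.73 ± 0.30, and Cxcl2 had -3.78 and -3.81 at 24 h against 1.18 and 1.17 at 3 h and fell by 4.97 ± 0.23. Cxcl5 and Ppbp, of the same class, were below background at 24 h and fell at least 6.06-fold and 16.5-fold. Ccl22, an attractant of regulatory T cells, fell at least 7.93-fold to below background. Among attractants of monocytes and of activated T cells, Ccl3 and Ccl4 fell by 1.02 ± 0.22 and 0.98 ± 0.25, and Cxcl10 had 6.58 and 6.52 at 24 h against 7.37 and 7.47 at 3 h and fell by 0.87 ± 0.16 (adjusted p = 0.00214). Ccl2 had 7.88 and 8.02 at 24 h against 7.82 and 7.99 at 3 h, groups that overlap (adjusted p = 0.945), and Ccl5 and Ccl7 had changes of 0.31 ± 0.21 and -0.37 ± 0.48 (adjusted p = 0.264 and 0.553). Ccl8, a further monocyte attractant, had 5.40 and 5.48 at 24 h against 2.44 and 2.79 at 3 h and rose by 2.83 ± 0.21 (adjusted p = 1.26e-05).

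The promoters of Il6 and of the 3 neighbouring chemokine genes Cxcl1, Cxcl2 and Cxcl3, all among the genes that fell, hold an NF-kB motif, GGGA and TTTCC with any 1 base between them, close to their start, and that of Nfkbia, which encodes the NF-kB inhibitor, holds it on the opposite strand. They are shown because NF-kB is the factor that TLR4 activates first. Of 27025 genes with a promoter sequence (250 bases before the start to 50 after it; RefSeq, GRCm38.p6), 0.466% hold the motif on either strand. It was found in 3 of 15 chemokine promoters, in 2 of 21 cytokine promoters and in none of the 11 available promoters of the 15 largest rises. At a share of 0.466%, its absence from 11 promoters says nothing of the rises. The motif also stood before the start of B2m, which rose, and of Ccr3, Cyld, Ifngr2, Map3k7 and Tlr3, which were not called. Birc5, Csf1, Gbp5 and Nfkb2, which hold it as well, fell. A match is a description of the letters and says nothing of binding in these cells. Capitals mark the motif in the strand of the gene.
Il6, chr5:30013050-30013099, plus strand: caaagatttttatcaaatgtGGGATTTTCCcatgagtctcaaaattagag
Cxcl1, chr5:90891154-90891203, plus strand: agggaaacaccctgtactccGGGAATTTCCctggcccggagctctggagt
Cxcl2, chr5:90903782-90903831, plus strand: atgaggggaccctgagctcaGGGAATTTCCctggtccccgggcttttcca
Cxcl3, chr5:90786008-90786057, plus strand: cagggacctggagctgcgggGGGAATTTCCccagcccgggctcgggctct
Nfkbia, chr12:55492648-55492696, minus strand: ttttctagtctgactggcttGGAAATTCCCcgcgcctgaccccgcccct

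Of 15 chemoattractant receptors tested, 8 rose and 5 fell (median 1.01). Fpr1 and Fpr2, receptors of formylated bacterial peptides, had 2.77 and 2.74 at 24 h against -0.51 and -0.35 at 3 h and 3.03 and 3.04 at 24 h against 0.36 and 0.36 at 3 h, and rose by 3.18 ± 0.22 and 2.67 ± 0.22. C3ar1, the receptor of complement fragment C3a, rose by 1.90 ± 0.082, Ltb4r1, of leukotriene B4, by 1.87 ± 0.11, and the chemokine receptor gene Ccr2 by 1.01 ± 0.13. Cxcr4 had -3.58 and -3.67 at 24 h against -5.17 and -5.04 at 3 h and rose by 1.48 ± 0.23, with 0.26 and -0.15 in untreated cells, above both. C5ar1, the receptor of C5a, had 1.97 and 1.82 at 24 h against 4.01 and 4.00 at 3 h and fell by 2.11 ± 0.16, Cx3cr1, the fractalkine receptor, by 2.41 ± 0.25, and the chemerin-binding receptor Ccrl2 by 2.41 ± 0.12.

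Of 24 receptors of interleukins, colony-stimulating factors and tumour necrosis factor, 6 rose and 9 fell, near the shares over all genes of 25.7% higher and 26.9% lower. Beside Il23r and Il12rb1, Il21r rose by 2.18 ± 0.13, Il6ra by 1.83 ± 0.19 and the shared gamma chain Il2rg by 1.37 ± 0.11. Il2ra had -4.73 and -4.72 at 24 h against -1.84 and -1.98 at 3 h and fell by 2.82 ± 0.21, and Il1rap, the accessory chain of the interleukin-1 receptor, fell by 1.96 ± 0.19. Csf1r, the receptor of CSF1, had 7.04 and 7.03 at 24 h against 7.10 and 7.17 at 3 h and did not pass the test (adjusted p = 0.454).

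Genes of the NF-kB system itself fell together. Of 22 subunits, inhibitors and feedback regulators tested, 20 fell, none rose, and the median change was -1.86. Among the subunits, Rel had -3.77 and -3.86 at 24 h against -1.02 and -1.03 at 3 h and fell by 2.79 ± 0.18, Nfkb1 had 0.24 and 0.17 at 24 h against 3.08 and 2.90 at 3 h and fell by 2.79 ± 0.16, Nfkb2 fell by 2.25 ± 0.11, Relb by 1.41 ± 0.12 and Rela by 0.92 ± 0.11 (adjusted p = 0.000195). Among the inhibitors, Tnfaip3, the deubiquitinase A20, had 3.63 and 3.52 at 24 h against 6.84 and 6.86 at 3 h, a fall by 3.28 ± 0.15 or 9.69-fold (adjusted p = 1.27e-06), and untreated cells had 1.25 and 1.27. Nfkbia had mean levels of 4.91 ± 0.059 at 24 h against 6.95 ± 0.071 at 3 h (SD, n = 2) and fell by 2.04 ± 0.11, with 2.56 and 2.46 in untreated cells, so that it was still above that at 24 h. Nfkbiz, which encodes a coactivator of late NF-kB targets, fell by 3.22 ± 0.12, and Nfkbie by 2.95 ± 0.12. Tnfaip2 fell by 3.45 ± 0.10 and its 24 h levels of 3.82 and 3.84 matched the untreated 3.88 and 3.84 in size. Cyld and Tank, with -0.15 ± 0.13 and -0.24 ± 0.13, were the 2 members that did not pass (adjusted p = 0.396 and 0.161).

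Of 22 immediate early factors tested, 9 fell and 3 rose (median -0.32, which became -0.16 with normexp and -0.20 with no filter on dim probes). Maff, a small MAF factor, had -1.89 and -1.72 at 24 h against 2.36 and 2.34 at 3 h and fell by 4.16 ± 0.17. Egr2, Fosl2 and Junb fell by 2.89 ± 0.16, 2.34 ± 0.20 and 1.99 ± 0.31. Jun, the AP-1 subunit, had 2.45 and 2.58 at 24 h against 0.56 and 0.63 at 3 h and rose by 1.92 ± 0.23, and Klf2, a factor known to restrain myeloid activation, had 2.99 and 2.96 at 24 h against 1.05 and 1.03 at 3 h and rose by 1.93 ± 0.17 (adjusted p = 3.51e-05), with 2.61 and 2.24 in untreated cells. Fos had -0.18 ± 0.24 (adjusted p = 0.549), and Fosb -0.19 ± 0.13 (adjusted p = 0.263). Egr1 had -1.71 and -1.51 at 24 h against -0.78 and -0.66 at 3 h and fell by 0.89 ± 0.25 (adjusted p = 0.0176), a call lost without wildtype 3 h replicate 1 (adjusted p = 0.0541) and without wildtype 3 h replicate 2 (adjusted p = 0.0799) and without wildtype 24 h replicate 1 (adjusted p = 0.0876).

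Of 21 phosphatases of MAP kinases and factors of mRNA decay, 10 fell and 7 rose. Beside Dusp2, Dusp14 had -5.11 and -5.09 at 24 h against -0.48 and -0.62 at 3 h and fell by 4.55 ± 0.19. Dusp6, which acts on ERK, had 3.40 and 3.32 at 24 h against 0.85 and 0.72 at 3 h and rose by 2.58 ± 0.26, with 3.64 and 3.83 in untreated cells, and Dusp10 rose by 1.56 ± 0.12. Zfp36, the gene of tristetraprolin, had 0.76 and 0.91 at 24 h against 3.07 and 2.93 at 3 h and fell by 2.17 ± 0.16, and Zc3h12a, the gene of regnase-1, fell by 2.45 ± 0.19. The related genes Zfp36l1 and Zfp36l2 had mean levels of 0.96 ± 0.037 at 24 h against -1.40 ± 0.15 at 3 h (SD, n = 2) and mean levels of 4.50 ± 0.17 at 24 h against 2.55 ± 0.10 at 3 h (SD, n = 2), and rose by 2.36 ± 0.24 and 1.95 ± 0.18. Trib1, a pseudokinase that controls C/EBP proteins, rose by 2.56 ± 0.16. Dusp1 had 2.93 and 2.94 at 24 h against 3.13 and 2.99 at 3 h and did not pass the test (adjusted p = 0.326).

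Of 32 Toll-like receptors and their adaptors, 10 rose and 11 fell, near the shares over all genes (25.7% higher and 26.9% lower), and their median of -0.051 became 0.019 when the probes of a gene were averaged. Tlr2, the receptor of bacterial lipopeptides, had 2.14 and 1.91 at 24 h against 6.50 and 6.56 at 3 h and fell by 4.51 ± 0.18 (adjusted p = 6.68e-07), and Cd14 had 3.18 and 3.04 at 24 h against 6.48 and 6.52 at 3 h and fell by 3.39 ± 0.12. Their untreated levels were 1.80 and 1.57 and 3.42 and 3.60, near those at 24 h. Tlr4 had 1.99 and 1.84 at 24 h against 0.52 and 0.52 at 3 h and rose by 1.39 ± 0.12, with 1.52 and 1.55 in untreated cells. Tlr13, a sensor of bacterial ribosomal RNA, rose by 2.18 ± 0.089, Ticam1, the gene of the adaptor TRIF, by 1.22 ± 0.079, and the endosomal receptor Tlr8 by 0.97 ± 0.18. Map3k8, a kinase upstream of ERK, fell by 1.83 ± 0.15. Ly96, the gene of MD-2, had 3.05 and 3.01 at 24 h against 3.04 and 2.99 at 3 h, groups that overlap (adjusted p = 0.927).

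**Figure D2:**
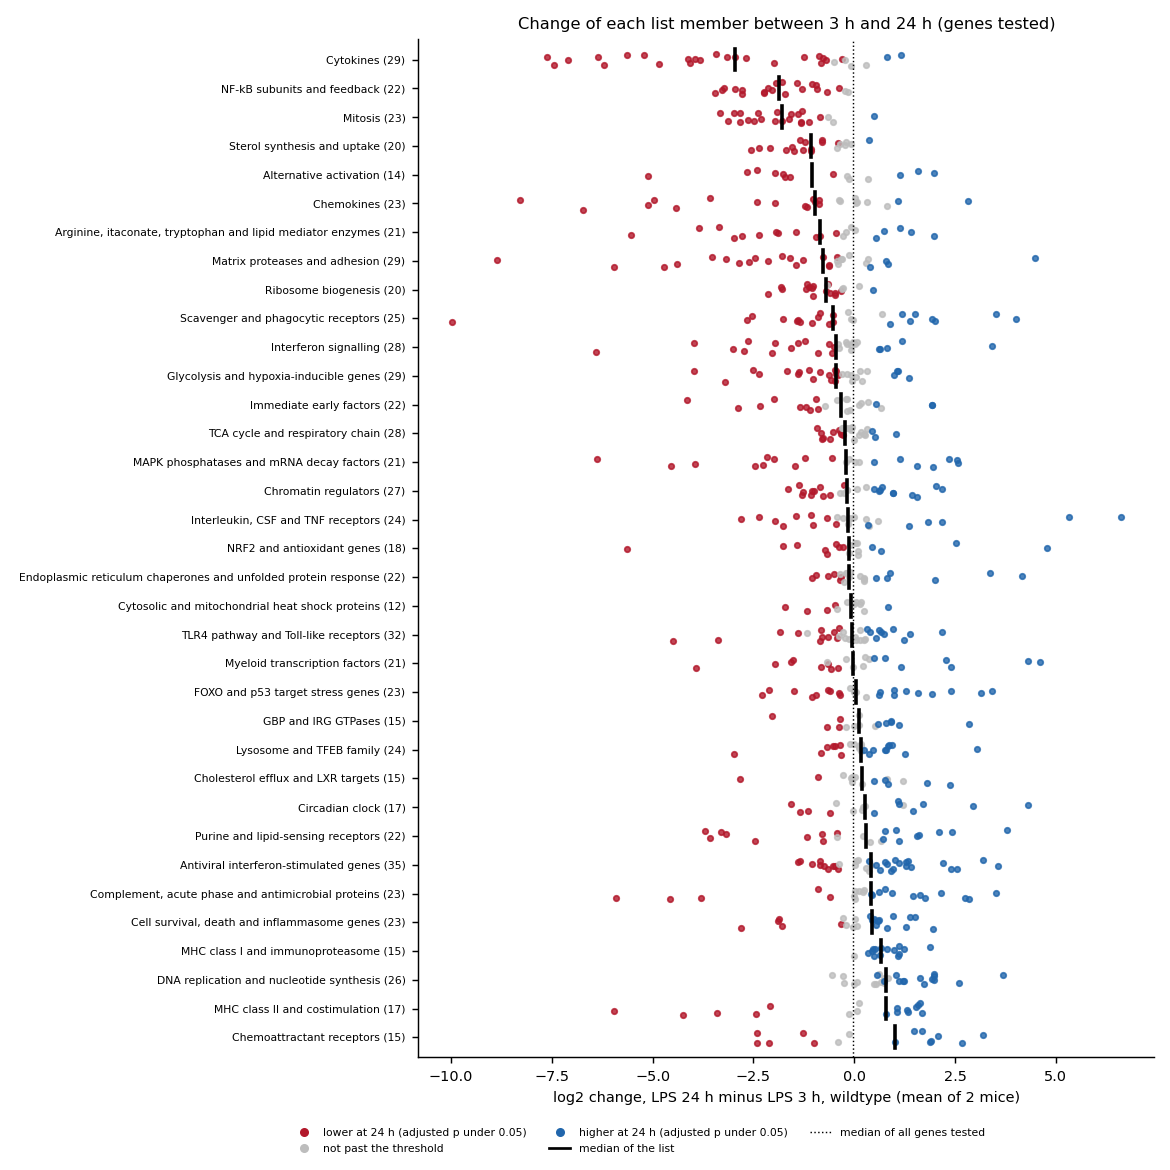
Change between 3 h and 24 h in wildtype cells (log2, 24 h minus 3 h, mean of 2 mice) for each member of 35 gene lists, with the number of genes tested in parentheses. Points are genes, coloured by whether they passed the test, bars are list medians and the dotted line is the median of all genes. Cytokines, NF-kB genes and mitosis genes lie furthest to the left, and chemoattractant receptors, MHC class II and DNA replication genes furthest to the right.

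Interferon genes were less uniform than the NF-kB genes. Among 28 genes of interferon signalling and its inhibitors, 14 fell and 5 rose (median -0.46, and -0.82 after rescaling to a common spike-in slope). Irf7, the factor that amplifies the interferon response, had 5.47 and 5.57 at 24 h against 2.09 and 2.11 at 3 h, a rise by 3.42 ± 0.20 or 10.7-fold (adjusted p = 4.3e-06), and untreated cells had -2.07 and -1.64. Stat2 rose by 1.19 ± 0.15, whereas Irf9, its partner in the interferon-activated complex, had 0.078 ± 0.12 (adjusted p = 0.609). Irf1 had 6.01 and 5.94 at 24 h against 7.33 and 7.42 at 3 h and fell by 1.40 ± 0.15. The cytokine signalling inhibitors Socs3 and Socs1 had 4.26 and 4.22 at 24 h against 7.21 and 7.29 at 3 h and 3.20 and 3.16 at 24 h against 5.09 and 5.35 at 3 h, and fell by 3.01 ± 0.23 and 2.03 ± 0.10. Stat5a, which carries the signal of GM-CSF, had 1.25 and 1.14 at 24 h against 5.22 and 5.12 at 3 h and fell by 3.97 ± 0.13 (adjusted p = 3.38e-07), with 1.71 and 1.31 in untreated cells. Jak2, the kinase of the GM-CSF receptor, fell by 1.97 ± 0.13 and Socs2, a STAT5 target, by 2.73 ± 0.21.

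Of 35 antiviral interferon-stimulated genes tested, 18 rose and 10 fell, with a median of 0.41 that became -0.00813 after rescaling to a common spike-in slope. Bst2, the gene of tetherin, had 7.84 and 7.78 at 24 h against 5.35 and 5.44 at 3 h and rose by 2.41 ± 0.10 (adjusted p = 7.99e-07). Oas3, which makes the activator of RNase L, had 3.06 and 3.14 at 24 h against 0.50 and 0.61 at 3 h and rose by 2.54 ± 0.21, Isg20, an exonuclease, by 2.20 ± 0.14 and Slfn1 by 3.58 ± 0.40. Members of a single family went apart. Ifit3 had mean levels of 7.02 ± 0.021 at 24 h against 5.74 ± 0.087 at 3 h (SD, n = 2) and rose by 1.28 ± 0.15, while Ifit1 had 5.29 and 5.11 at 24 h against 6.57 and 6.64 at 3 h and fell by 1.41 ± 0.17 (adjusted p = 0.000207). Mx2 had 3.88 and 3.73 at 24 h against 5.18 and 5.12 at 3 h and fell by 1.35 ± 0.14, while Mx1 had 6.72 and 6.63 at 24 h against 6.59 and 6.68 at 3 h, groups that overlap (adjusted p = 0.809). Isg15, a ubiquitin-like modifier, had 7.76 and 7.79 at 24 h against 7.30 and 7.43 at 3 h and did not pass (adjusted p = 0.0593). All of these had higher levels at both times than in untreated cells, by the smallest margin in Bst2 at 3 h, with 4.48 and 4.58 in untreated cells, and Ifit1 had -2.09 and -2.20 in untreated cells.

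Among 15 genes of the GBP and IRG families, GTPases that attack the vacuoles of intracellular microbes, 6 rose and 4 fell, with a median of 0.12 that became -0.047 after rescaling to a common spike-in slope. Gbp8 had -0.74 and -0.68 at 24 h against -3.63 and -3.50 at 3 h and rose by 2.85 ± 0.19, and Gbp2 rose by 0.59 ± 0.18 (adjusted p = 0.0237). Gbp5, which promotes the NLRP3 inflammasome, had 2.22 and 2.29 at 24 h against 4.24 and 4.36 at 3 h and fell by 2.05 ± 0.16 (adjusted p = 1.7e-05), and Irgm2 fell by 0.68 ± 0.13.

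The letters of the interferon-stimulated response element (ISRE), searched on both strands as GAAA, any 2 bases and GAAA again, stood in the promoters of genes that rose and of genes that fell, which is why both kinds are shown. It is the element bound by the interferon-activated complex that holds STAT2 and IRF9. Of all 27025 genes 3.99% hold it, against 15 of 26 antiviral genes with a promoter (6 of 13 called higher and 6 of 8 called lower) and 9 of 10 GBP and IRG genes. Capitals mark the motif in the strand of the gene. Bst2, Oas3, Ifit3 and Gbp2 were higher at 24 h.
Bst2, chr8:71537567-71537616, minus strand: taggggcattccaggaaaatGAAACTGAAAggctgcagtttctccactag
Oas3, chr5:120777705-120777754, minus strand: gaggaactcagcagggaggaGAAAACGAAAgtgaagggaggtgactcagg
Ifit3, chr19:34583387-34583436, plus strand: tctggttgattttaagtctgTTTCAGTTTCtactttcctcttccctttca
Gbp2, chr3:142620584-142620633, plus strand: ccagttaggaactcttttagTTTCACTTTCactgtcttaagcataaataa
Ifit1 and Gbp5 were lower at 24 h.
Ifit1, chr19:34640784-34640833, plus strand: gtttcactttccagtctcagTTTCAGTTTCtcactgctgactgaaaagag
Gbp5, chr3:142496749-142496798, plus strand: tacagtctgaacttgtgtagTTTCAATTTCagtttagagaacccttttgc

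Genes of antigen presentation were mostly higher at 24 h. Of 15 MHC class I and immunoproteasome genes tested, 14 rose and none fell (median 0.66), with 25.7% of all genes called higher. The median became 0.32 after rescaling to a common spike-in slope. H2-T23, a non-classical class I gene, had 7.67 and 7.67 at 24 h against 6.44 and 6.43 at 3 h and rose by 1.24 ± 0.10. Psmb9, an immunoproteasome subunit, had 5.24 and 5.19 at 24 h against 4.11 and 4.09 at 3 h and rose by 1.12 ± 0.086, the peptide transporter gene Tap1 by 0.53 ± 0.14 and B2m, the light chain, by 0.46 ± 0.11. Psmb8 had 5.50 and 5.45 at 24 h against 2.90 and 4.31 at 3 h, with mouse 1 below mouse 2 at 3 h, and its rise by 1.87 ± 0.36 became 1.16 without wildtype 3 h replicate 1. Nlrc5, the transactivator of class I genes, had 3.70 and 3.68 at 24 h against 3.69 and 3.69 at 3 h, groups that overlap (adjusted p = 0.997).

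Of 17 MHC class II and costimulatory genes, 9 rose and 5 fell (median 0.80). The chains H2-Aa and H2-Eb1 had -1.45 and -1.45 at 24 h against -3.05 and -3.21 at 3 h and 2.21 and 2.29 at 24 h against 1.11 and 0.74 at 3 h, and rose by 1.68 ± 0.38 and 1.33 ± 0.40 (adjusted p = 0.00589 and 0.0226). H2-DMa, which loads peptides, rose by 1.31 ± 0.13, and Cd74, the invariant chain, by 1.05 ± 0.30. Ciita, the transactivator of class II genes, went the other way, with -4.30 and -4.20 at 24 h against -1.81 and -1.84 at 3 h and a fall by 2.43 ± 0.35 (adjusted p = 0.000556). The costimulatory genes Cd40, Icosl and Cd83 had 2.05 and 2.14 at 24 h against 6.34 and 6.34 at 3 h, -1.56 and -1.59 at 24 h against 1.91 and 1.77 at 3 h and -0.024 and 0.014 at 24 h against 5.91 and 5.99 at 3 h, and fell by 4.25 ± 0.14, 3.41 ± 0.091 and 5.95 ± 0.099. Cd86 rose by 0.80 ± 0.20 (adjusted p = 0.00876) and Pdcd1lg2, which encodes the inhibitory ligand PD-L2, by 1.63 ± 0.11. Cd80 had 0.93 and 0.89 at 24 h against 1.01 and 1.06 at 3 h and did not pass (adjusted p = 0.359), as did Cd274, the gene of PD-L1, with 5.32 and 5.42 at 24 h against 5.19 and 5.33 at 3 h (adjusted p = 0.553).

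**Figure D3:**
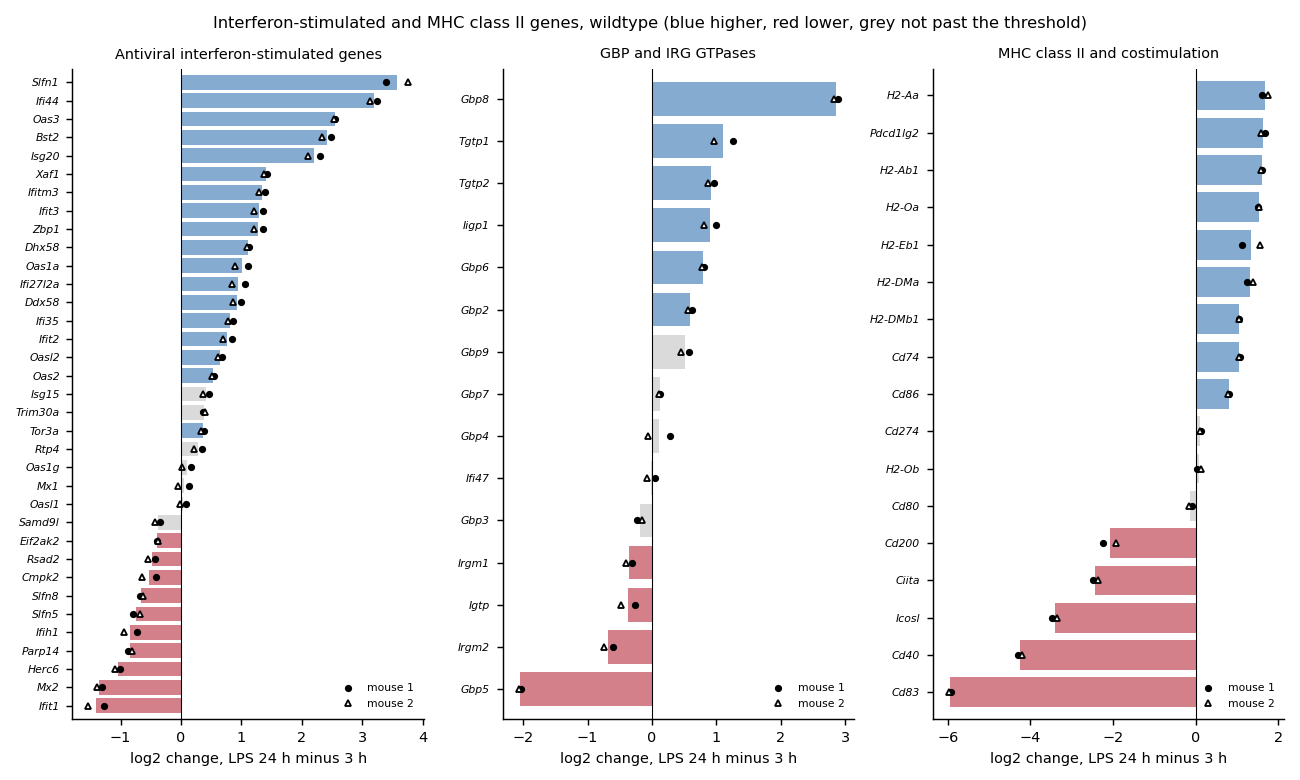
Change between 3 h and 24 h (log2, 24 h minus 3 h) of antiviral interferon-stimulated genes, GBP and IRG GTPases, and MHC class II and costimulatory genes in wildtype cells. Bars are means of 2 mice, circles mouse 1 and triangles mouse 2, with blue for genes called higher, red for lower and grey for neither. Each family holds members on both sides of 0.

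Of 23 complement, acute phase and antimicrobial genes, 12 rose and 5 fell (median 0.41, and 0.24 after rescaling to a common spike-in slope). Cfb, the gene of complement factor B, had 5.48 and 5.25 at 24 h against 1.90 and 1.79 at 3 h and rose by 3.52 ± 0.21 (adjusted p = 4.3e-06). Saa3, an acute phase apolipoprotein, had 7.97 and 7.80 at 24 h against 5.26 and 5.01 at 3 h and rose by 2.75 ± 0.27, with -2.77 and -3.60 in untreated cells, and Hp, the gene of haptoglobin, rose by 2.84 ± 0.32. Lcn2, which withholds bacterial siderophores, rose by 1.75 ± 0.17, C4b by 2.16 ± 0.34 and Slc11a1, a metal transporter of the phagosome, by 1.47 ± 0.076. Hamp, the gene of hepcidin, and Ptx3, a soluble pattern receptor, were below background at 24 h and fell at least 13-fold and 16.2-fold. C3, the central complement component, had 6.32 and 6.44 at 24 h against 5.55 and 5.67 at 3 h and rose by 0.77 ± 0.17 (adjusted p = 0.00562), which became 0.17 after rescaling to a common spike-in slope (adjusted p = 0.467).

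Of 25 scavenger and phagocytic receptors, 13 fell and 8 rose. Marco, a scavenger receptor for bacteria, had 5.59 and 5.75 at 24 h against 1.46 and 1.88 at 3 h and rose by 4.00 ± 0.24 (adjusted p = 5.12e-06), with -0.55 and 0.12 in untreated cells. Siglec1, a sialic acid receptor, had 2.19 and 2.34 at 24 h against -1.44 and -1.06 at 3 h and rose by 3.52 ± 0.15. The Fc receptor genes Fcgr1 and Fcgr4 rose by 1.94 ± 0.14 and 1.52 ± 0.17, Msr1 by 1.39 ± 0.18 and Mertk, a receptor for apoptotic cells, by 1.18 ± 0.13. Beside Olr1, Mrc1, the mannose receptor, had 2.58 and 2.63 at 24 h against 5.23 and 5.28 at 3 h and fell by 2.65 ± 0.11, Clec5a fell at least 4.84-fold to below background, Trem1 fell by 1.76 ± 0.12 and Clec7a, the beta-glucan receptor, by 1.42 ± 0.13.

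Genes linked to alternative activation included 8 of 14 that fell and 3 that rose. Arg1, the gene of arginase 1, had -5.49 and -5.61 at 24 h against -7.39 and -7.68 at 3 h, was below background at 3 h and rose at least 2.81-fold. Pparg, a lipid-sensing nuclear receptor, had 1.45 and 1.54 at 24 h against -0.13 and -0.028 at 3 h and rose by 1.57 ± 0.12, with 2.00 and 2.13 in untreated cells. Tgm2, a transglutaminase, fell by 1.71 ± 0.12.

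Genes of adhesion and matrix breakdown mostly fell, 18 of 29 against 4 that rose (median -0.77). Icam1 and Vcam1, ligands of leukocyte integrins, had 1.41 and 1.42 at 24 h against 4.90 and 4.97 at 3 h and -2.35 and -2.82 at 24 h against 2.23 and 2.02 at 3 h, and fell by 3.52 ± 0.21 and 4.71 ± 0.40. The collagenase gene Mmp13 fell by 4.38 ± 0.13, Plaur, the urokinase receptor, by 3.18 ± 0.18, Cd44, the hyaluronan receptor, by 2.87 ± 0.095 and the integrin gene Itga4 by 2.47 ± 0.18. Selplg, the gene of a selectin ligand, rose by 0.83 ± 0.078 and Mmp19, a matrix protease gene, by 0.79 ± 0.15.

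Among 22 receptors of purines, lipids and metabolites, 9 rose and 9 fell. Gpr84, a receptor of medium-chain fatty acids, had 1.31 and 1.28 at 24 h against 4.84 and 4.89 at 3 h and fell by 3.57 ± 0.24, and the adenosine receptor genes Adora2a and Adora2b fell by 3.30 ± 0.14 and 3.19 ± 0.18. Gpr34, a lysophosphatidylserine receptor, had -5.32 and -5.17 at 24 h against -1.44 and -1.65 at 3 h and fell by 3.70 ± 0.19, with 1.05 and 0.64 in untreated cells. Gpr65, a proton-sensing receptor, rose by 2.41 ± 0.18, and P2rx7, the ATP-gated channel upstream of NLRP3, had 3.19 and 3.08 at 24 h against 1.55 and 1.52 at 3 h and rose by 1.60 ± 0.14.

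Genes of inflammatory metabolites mostly fell, 12 of 21 against 5 that rose (median -0.85, which became -0.46 with normexp and -0.36 with only probes detected on all arrays). Ptgs2, the inducible cyclooxygenase, had -4.63 and -4.52 at 24 h against 0.92 and 0.98 at 3 h and fell by 5.53 ± 0.22, and the constitutive Ptgs1 fell by 1.95 ± 0.21. Ch25h, which makes 25-hydroxycholesterol, fell by 3.84 ± 0.33, and Alox5, the enzyme of leukotriene synthesis, by 3.35 ± 0.37. Nos2, the inducible nitric oxide synthase, had 1.46 and 1.54 at 24 h against 3.30 and 3.46 at 3 h and fell by 1.88 ± 0.088, with -1.17 and -1.06 in untreated cells. The arginine transporter gene Slc7a2 fell by 2.78 ± 0.13 and Arg2 by 2.97 ± 0.22, while Ass1, which regenerates arginine from citrulline, had 1.44 and 1.69 at 24 h against -0.054 and 0.39 at 3 h and rose by 1.40 ± 0.20. Odc1, the first enzyme of polyamine synthesis, fell by 2.37 ± 0.11. Acod1, which makes itaconate, had 7.17 and 7.09 at 24 h against 7.57 and 7.57 at 3 h and fell by 0.44 ± 0.12 (adjusted p = 0.0148), with -3.61 and -3.70 in untreated cells. Its call was lost without wildtype 3 h replicate 1 (adjusted p = 0.061) and without wildtype 3 h replicate 2 (adjusted p = 0.0646) and without wildtype 24 h replicate 2 (adjusted p = 0.0816).

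Of 29 glycolytic and hypoxia-inducible genes, 17 fell and 4 rose (median -0.45, and -0.77 after rescaling to a common spike-in slope). Hif1a, the hypoxia factor, had 0.65 and 0.48 at 24 h against 3.19 and 2.95 at 3 h and fell by 2.50 ± 0.24. Ndrg1 had -0.13 and -0.21 at 24 h against 3.83 and 3.78 at 3 h, a fall by 3.98 ± 0.079 or 15.7-fold (adjusted p = 6.5e-08), with 3.06 and 3.03 in untreated cells, so that it was lowest at 24 h. Hk2, an inducible hexokinase, had 2.58 and 2.50 at 24 h against 4.96 and 4.84 at 3 h and fell by 2.36 ± 0.19, Adm, the gene of adrenomedullin, by 3.19 ± 0.21, Pdk1 by 1.66 ± 0.18 and the glucose transporter gene Slc2a1 by 0.85 ± 0.12. Hk3 and Vegfa rose by 1.07 ± 0.21 and 1.05 ± 0.22. Ldha had 0.19 ± 0.086 and did not pass (adjusted p = 0.101). Of 28 genes of the citric acid cycle and respiratory chain 11 fell and 3 rose. Sdhb, a subunit of succinate dehydrogenase, had the largest change, with 6.29 and 6.29 at 24 h against 5.24 and 5.26 at 3 h and a rise by 1.05 ± 0.086, and Fh1, the gene of fumarase, fell by 0.93 ± 0.13. The other members called higher, Cox5a and Ogdh, had -0.094 and -0.00879 after rescaling to a common spike-in slope.

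Sterol genes fell together. Of 20 genes of cholesterol synthesis and uptake, 14 fell and 1, Srebf2, rose, and the median change was -1.08. Cyp51, which removes a methyl group from lanosterol, had -2.28 and -2.44 at 24 h against -0.067 and 0.066 at 3 h and fell by 2.36 ± 0.18 (adjusted p = 1.69e-05), with -0.80 and -0.27 in untreated cells, and Idi1, an isomerase of isoprenoid synthesis, fell by 2.09 ± 0.19. Insig1, which holds the SREBP complex in the endoplasmic reticulum, fell by 1.69 ± 0.15. The rise of Srebf2, by 0.38 ± 0.088, was -0.26 with the mean over its probes and -0.00259 after rescaling to a common spike-in slope. Among 15 genes of cholesterol efflux and the LXR receptors, 5 rose and 2 fell. Nr1h3, the gene of LXR alpha, had 4.53 and 4.49 at 24 h against 2.19 and 2.09 at 3 h and rose by 2.37 ± 0.093 (adjusted p = 6.07e-07), Abcg1, an efflux transporter, by 1.81 ± 0.15, and Mylip, a ubiquitin ligase gene, by 0.84 ± 0.15. Scd1, a fatty acid desaturase, had -5.74 and -5.69 at 24 h against -3.05 and -2.73 at 3 h and fell by 2.83 ± 0.43. Apoe had 7.02 and 6.82 at 24 h against 7.24 and 7.16 at 3 h and did not pass (adjusted p = 0.167). Abca1, a further efflux transporter, had 2.18 and 2.25 at 24 h against 3.20 and 3.03 at 3 h and fell by 0.91 ± 0.22 (adjusted p = 0.00925), a call lost without wildtype 3 h replicate 1 (adjusted p = 0.0558).

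**Figure D4:**
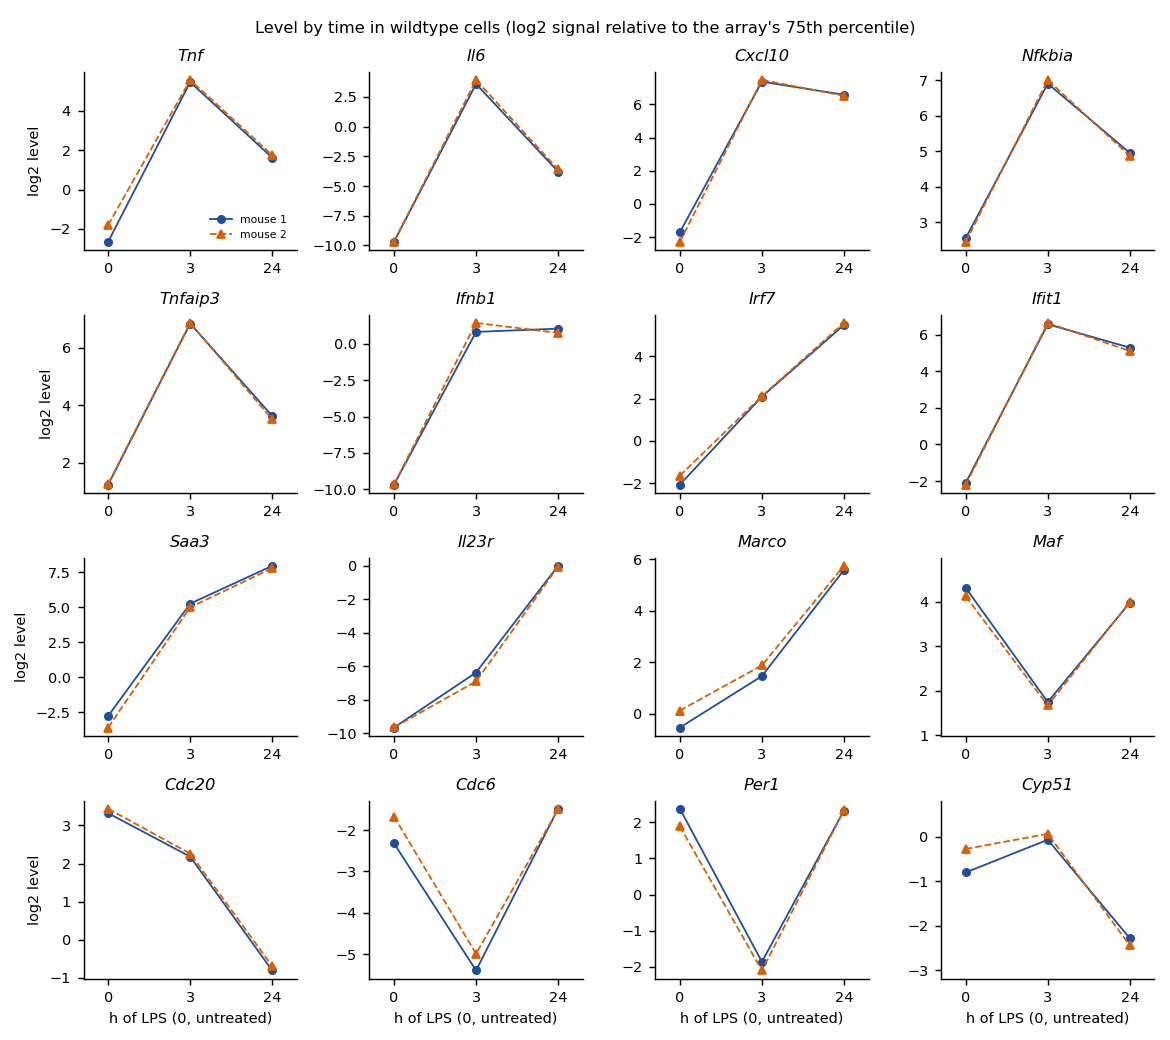
Levels of 16 genes in untreated wildtype cells (0) and after 3 h and 24 h of LPS, as log2 signal relative to the array's 75th percentile, 1 line per mouse, with times evenly spaced. Tnf, Il6, Nfkbia and Tnfaip3 were highest at 3 h, Irf7, Saa3, Il23r and Marco at 24 h, and Maf and Per1 were lowest at 3 h.

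Cell cycle genes were divided between mitosis and replication. Of 23 mitosis genes, 20 fell and 1, Tpx2, rose (median -1.79), and Tpx2 had -0.17 with the mean over its probes in place of 0.50. Its call was also lost without any 1 of the 4 arrays, with adjusted p between 0.0848 and 0.177. Cdc20, an activator of the anaphase-promoting complex, had -0.81 and -0.70 at 24 h against 2.18 and 2.26 at 3 h, a fall by 2.97 ± 0.23 or 7.86-fold (adjusted p = 1.73e-05), and untreated cells had 3.32 and 3.44. Ccnb2, the gene of a mitotic cyclin, had -0.069 and 0.022 at 24 h against 3.19 and 3.41 at 3 h and fell by 3.32 ± 0.26, the kinase gene Plk1 fell by 2.84 ± 0.28, Ube2c by 3.14 ± 0.22 and Mki67, a marker of dividing cells, by 2.48 ± 0.20. Their 24 h levels were below the untreated levels too, as in Plk1 with -0.17 and -0.090 against 3.06 and 3.32.

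Of 26 genes of DNA replication and nucleotide synthesis, 14 rose and none fell (median 0.78). Cdc6, which loads the replicative helicase, had mean levels of -1.49 ± 0.00889 at 24 h against -5.19 ± 0.28 at 3 h (SD, n = 2) and rose by 3.69 ± 0.33 (adjusted p = 3.6e-05), with -2.32 and -1.68 in untreated cells. Its partner Cdt1 had 4.61 and 4.56 at 24 h against 2.61 and 2.61 at 3 h and rose by 1.98 ± 0.19, and Gmnn, the inhibitor of Cdt1, had 2.16 and 2.22 at 24 h against 0.16 and 0.27 at 3 h and rose by 1.98 ± 0.31. E2f2 and E2f1, factors that drive entry into S phase, rose by 2.61 ± 0.37 and 1.24 ± 0.13, and the helicase subunit gene Mcm2 by 1.63 ± 0.44. Mcm5 had 2.74 and 2.71 at 24 h against 1.79 and 2.01 at 3 h, groups that do not overlap, but did not pass the test (0.83 ± 0.47, adjusted p = 0.174). With the mouse as a block it passed (adjusted p = 0.0239). Rrm2 and Tyms, of deoxynucleotide synthesis, had -0.25 ± 0.57 and 0.064 ± 0.13 (adjusted p = 0.746 and 0.703).

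The E2F motif, searched as TTTNGCGC on both strands, stood in 8 of 20 promoters of replication genes, 1 of 19 promoters of mitosis genes and 1.57% of all promoters. Among replication genes called higher it stood in 4 of 10 promoters, the same 40% as in the whole list. Mcm5, Mcm6 and Pola1, which were not called, hold the motif too, as do Fosl2 and Traf1, which fell. It is shown for a replication gene and a maintenance methyltransferase gene that rose, Uhrf1 and Dnmt1, and for Cdk1, the mitosis gene that holds it, which fell by 1.13 ± 0.27. Uhrf1 rose by 1.73 ± 0.47 and Dnmt1 by 2.04 ± 0.23. Capitals mark the motif in the strand of the gene.
Uhrf1, chr17:56304108-56304155, plus strand: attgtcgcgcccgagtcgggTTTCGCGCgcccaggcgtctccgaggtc
Dnmt1, chr9:20952815-20952862, minus strand: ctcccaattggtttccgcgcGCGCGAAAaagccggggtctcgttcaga
Cdk1, chr10:69353016-69353063, minus strand: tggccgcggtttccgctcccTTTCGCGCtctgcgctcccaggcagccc

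**Figure D5:**
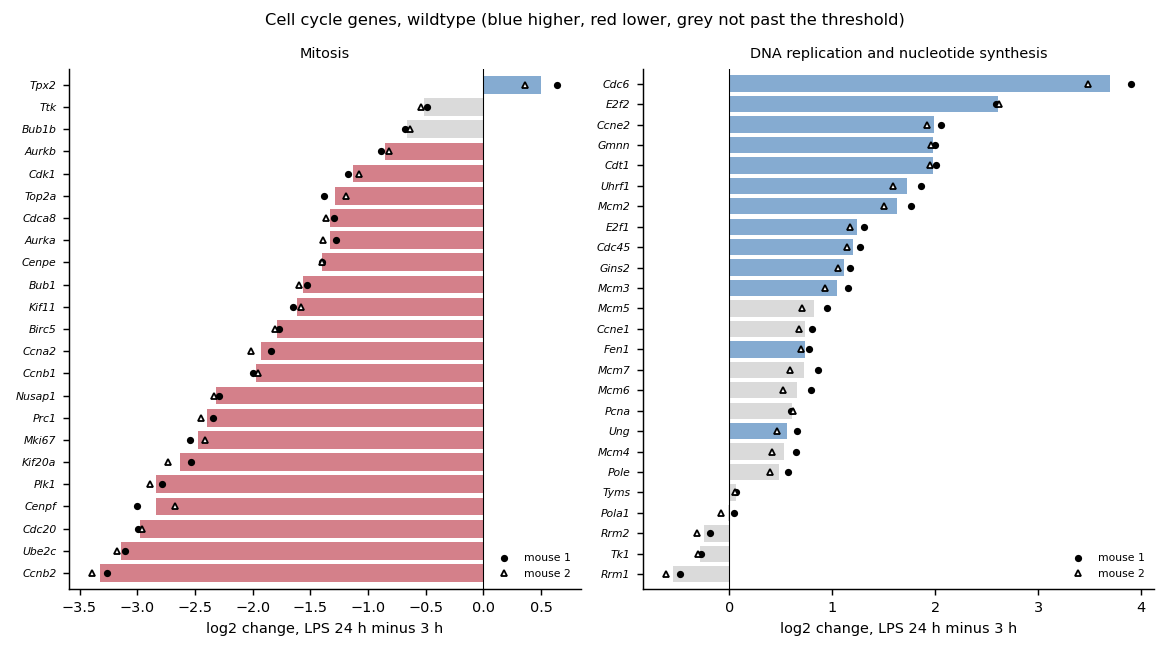
Change between 3 h and 24 h (log2, 24 h minus 3 h) of mitosis genes (left) and genes of DNA replication and nucleotide synthesis (right) in wildtype cells. Bars are means of 2 mice, circles mouse 1 and triangles mouse 2, with blue for genes called higher, red for lower and grey for neither. In the right panel 1 gene is not shown. Apart from Tpx2, the mitosis genes shown lie below 0, while all called replication genes lie above it.

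Of 20 ribosome biogenesis genes, 15 fell and 1 rose (median -0.69). Rrs1 had -0.062 and -0.11 at 24 h against 2.11 and 2.00 at 3 h and fell by 2.15 ± 0.12, with -0.12 and 0.20 in untreated cells. Polr1b, a subunit of RNA polymerase I, fell by 1.82 ± 0.18, Nop58 by 1.78 ± 0.21 and Npm1, the gene of nucleophosmin, by 1.12 ± 0.14.

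In a list of 22 endoplasmic reticulum chaperone and stress response genes, 6 rose and 6 fell, close to the 25.7% and 26.9% of all genes. Ddit3, the gene of CHOP, had mean levels of 3.09 ± 0.14 at 24 h against -1.08 ± 0.11 at 3 h (SD, n = 2) and rose by 4.17 ± 0.098 (adjusted p = 8.76e-08), Trib3 had 3.06 and 3.22 at 24 h against -0.35 and -0.12 at 3 h and rose by 3.38 ± 0.24, and Chac1, a glutathione-degrading enzyme induced by ATF4, rose by 2.01 ± 0.25. Their untreated levels, 0.31 and 0.32 for Ddit3 and 1.04 and 1.20 for Trib3, lay between those of the LPS times. Hspa5, the main chaperone of the compartment, had 6.22 and 6.24 at 24 h against 6.39 and 6.47 at 3 h and did not pass (adjusted p = 0.105), and Sel1l, of protein degradation, fell by 1.05 ± 0.11. Among 12 cytosolic and mitochondrial heat shock genes, 4 fell and 1 rose, with a median of -0.092 that became 0.054 with quantile normalization. Hspa1a, an inducible chaperone, had -1.87 and -1.53 at 24 h against 0.010 and 0.017 at 3 h and fell by 1.71 ± 0.18, and Hsph1 rose by 0.83 ± 0.14.

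Among 18 NRF2 and antioxidant genes, 8 fell and 4 rose. Slc7a11, the cystine importer, was below background at 24 h, with -7.50 and -7.00 at 24 h against -1.51 and -1.74 at 3 h, and fell at least 37.1-fold. Hmox1, the haem-degrading oxygenase, had 6.29 and 6.44 at 24 h against 3.78 and 3.91 at 3 h and rose by 2.53 ± 0.12 (adjusted p = 1.57e-06), as Osgin1 did. Txnrd1 and Nqo1, further targets of the same factor, fell by 1.78 ± 0.16 and 1.42 ± 0.20, and Gclm had -1.60 and -1.47 at 24 h against -1.58 and -1.64 at 3 h, groups that overlap (adjusted p = 0.635).

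Of 23 FOXO and p53 target genes, 10 rose and 9 fell, with a median of 0.043 that became -0.072 after rescaling to a common spike-in slope. Sesn1, a stress-induced inhibitor of mTORC1, had 2.22 and 2.25 at 24 h against -1.27 and -1.07 at 3 h, a rise by 3.41 ± 0.17 or 10.6-fold (adjusted p = 1.61e-06), and untreated cells had 4.65 and 4.52. Bmf, a death gene of the BCL-2 family, rose by 3.14 ± 0.36 and Trp53inp1 by 2.40 ± 0.12, both from 3 h levels that lay below the untreated ones of 1.29 and 0.44 and 3.14 and 2.84. Cdkn1a, the cell cycle inhibitor p21, had 2.38 and 2.42 at 24 h against 4.61 and 4.78 at 3 h and fell by 2.30 ± 0.15.

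Genes of cell death and inflammasomes included 12 of 23 that rose and 5 that fell (median 0.45), and the median became 0.053 after rescaling to a common spike-in slope. Nlrp3, an inflammasome sensor, had -2.77 and -2.80 at 24 h against -0.023 and 0.044 at 3 h and fell by 2.80 ± 0.13, and the DNA sensor gene Aim2 fell by 1.80 ± 0.086. The effectors Casp1 and Gsdmd, which encode caspase-1 and the pore protein gasdermin D, rose by 0.80 ± 0.091 and 0.95 ± 0.087, and Mlkl, the executor of necroptosis, 2.82-fold (adjusted p = 1.11e-05). Cflar, an inhibitor of caspase-8, had 2.37 and 2.27 at 24 h against 4.27 and 4.08 at 3 h and fell by 1.85 ± 0.19, while Pmaip1, the gene of NOXA, and Bcl2 rose by 1.96 ± 0.15 and 1.29 ± 0.16.

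Of 17 clock genes tested, 7 rose and 4 fell. Per1 and Per2, the repressors of the clock, had 2.33 and 2.33 at 24 h against -1.87 and -2.10 at 3 h and -3.46 and -3.36 at 24 h against -6.20 and -6.54 at 3 h, and rose by 4.31 ± 0.17 and 2.96 ± 0.40 (adjusted p = 6.35e-07 and 0.000352). Dbp, an output factor, had 2.44 and 2.17 at 24 h against 0.55 and 0.64 at 3 h and rose by 1.71 ± 0.19, while Nfil3, which binds the same sites as a repressor, had 0.78 and 0.90 at 24 h against 2.33 and 2.47 at 3 h and fell by 1.56 ± 0.16. Arntl, the gene of BMAL1, rose by 1.10 ± 0.082 and Clock, its partner, fell by 1.14 ± 0.12. The untreated samples had 2.38 and 1.89 for Per1 and 3.96 and 3.40 for Dbp, above the 3 h levels. The times of day at which samples were taken are not given in the labels.

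Myeloid transcription factors had 7 of 21 members that rose and 8 that fell, and their median of -0.023 became 0.092 with only probes detected on all arrays and 0.059 without wildtype 3 h replicate 1. Maf, a factor of mature macrophages, had 3.98 and 4.00 at 24 h against 1.75 and 1.67 at 3 h and rose by 2.28 ± 0.12. Lyl1, a haematopoietic factor, had 3.80 and 3.69 at 24 h against -0.91 and -0.82 at 3 h and rose by 4.61 ± 0.12 (adjusted p = 1.09e-07), and Cebpa rose by 2.39 ± 0.19. In these 3 genes the 3 h level was lowest of the 3 times: untreated cells had 4.32 and 4.12 for Maf, 4.37 and 4.32 for Lyl1 and 1.53 and 1.63 for Cebpa. Gfi1, a repressor, had -6.29 and -5.74 at 24 h against -1.99 and -2.17 at 3 h and fell by 3.93 ± 0.61, and Cebpd, which responds early to inflammation, fell by 1.58 ± 0.14. Tfeb and Tfec, related factors of lysosomal genes, went apart, with -0.85 and -0.78 at 24 h against -3.91 and -3.78 at 3 h for Tfeb and 0.63 and 0.62 at 24 h against 3.64 and 3.57 at 3 h for Tfec, a rise by 3.03 ± 0.092 and a fall by 2.98 ± 0.14. In the list of 24 lysosomal genes and their factors 10 rose and 7 fell, and the median of 0.16 became -0.50 after rescaling to a common spike-in slope.

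Of 27 chromatin regulators, 10 rose and 11 fell, with a median of -0.19 that became 0.00322 with quantile normalization. Dnmt1 had 0.72 and 0.85 at 24 h against -1.38 and -1.13 at 3 h, and Dnmt3a, a de novo methyltransferase, had mean levels of 1.59 ± 0.14 at 24 h against 0.046 ± 0.024 at 3 h (SD, n = 2) and rose by 1.55 ± 0.13, while the related Dnmt3b fell by 1.64 ± 0.12. Hdac5 rose by 1.44 ± 0.10. Setdb2, a histone methyltransferase induced by interferon, had 1.88 and 1.67 at 24 h against 3.19 and 3.09 at 3 h and fell by 1.36 ± 0.14.

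Markers of other cell types were measured beside these changes, and their part in the results was not tested. Their counts stand against 25.7% of all genes called higher and 26.9% called lower. Of 10 dendritic cell markers tested, 5 were lower at 24 h and 1, Clec9a, was higher, and the summed level was 49.5 and 53.9 at 24 h against 116 and 119 at 3 h. Untreated cells had sums of 59.6 and 57.6. Cd83, with levels of 5.91 and 5.99 at 3 h, made up the larger part of the 3 h sums. The fall of the sum is thus mostly that of Cd83. Zbtb46 fell by 3.18 ± 0.18 and Itgax, the gene of CD11c, by 2.13 ± 0.26, beside Cd83 and Ccl22 above. Of 10 neutrophil markers tested 2 were lower and 1 higher, both shares below those over all genes, with sums of 44.4 and 48.9 at 24 h against 43.4 and 41.8 at 3 h. Of 8 B cell markers 2 were higher and 1 lower, with sums of 70.3 and 64.2 at 24 h against 55.2 and 53 at 3 h, and Ms4a1 rose at least 5.46-fold from below background. Of 7 T and NK cell markers tested 2 fell and none rose, with sums of 7.43 and 8.01 at 24 h against 10.9 and 11.7 at 3 h, and Lck, a T cell kinase, had -1.94 and -1.96 at 24 h against 2.22 and 2.30 at 3 h and fell by 4.21 ± 0.13. Without Lck the sums would be higher at 24 h than at 3 h. Of 8 erythroid markers 3 entered the test and none was called, while others, such as Alas2 and Klf1, did not enter it. Of 8 osteoclast markers 5 fell and 2 rose, with sums of 44.7 and 36 at 24 h against 84.4 and 68.8 at 3 h, and Dcstamp, needed for cell fusion, fell by 3.79 ± 0.58. Of 7 megakaryocyte markers 3 entered the test and 2 of them were lower, with sums over the 3 of 45.1 and 42.8 at 24 h against 79.9 and 81.8 at 3 h. Of 9 markers of mast cells, basophils and eosinophils 4 entered it and 2 of them were lower, with sums over the 4 of 0.201 and 0.198 at 24 h against 0.642 and 0.548 at 3 h. Of 8 stroma markers 6 entered it, 1 higher and 1 lower, with sums over the 6 of 3.88 and 3.68 at 24 h against 3.17 and 3.38 at 3 h.

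In Commd1 knockout cells 6051 of 22973 genes (26.3%) were higher and 7488 (32.6%) lower at 24 h than at 3 h, 13539 (58.9%) in all. The knockout arrays lay on the same slides as the wildtype arrays of each time, at positions 3 and 4, with wildtype at 1 and 2. Genotype and position therefore cannot be told apart. Knockout arrays had spike-in slopes of 0.8695 and 0.8424 at 24 h and 0.7982 and 0.7985 at 3 h. Of their probes, 59.2% and 62.75% were well above background at 24 h. Of the 12079 genes called in wildtype cells, 10395 (86.1%) were called in the same direction in knockout cells and 19 in the opposite direction. List medians in knockout cells were near the wildtype ones for cytokines (-2.79 against -2.95) and NF-kB genes (-1.80 against -1.86). Some other list medians differed, which was not tested. Among MHC class II and costimulatory genes 4 rose and 6 fell in knockout cells (median 0.20 against 0.80). Purine and lipid-sensing receptors had a median of -0.63 against 0.30. C3 had 0.14 in knockout cells and was not called there. The change of Il6 was -7.24 in knockout and -7.45 in wildtype cells, that of Cdc20 -3.83 in knockout and -2.97 in wildtype cells, and that of Irf7 2.66 in knockout and 3.42 in wildtype cells. Il23r was below background at 3 h in knockout cells, with a bounded change of 6.69 there and a change of 6.62 in wildtype cells. In the test of the difference between the changes, 1 of 22973 genes (0.00435%) passed, Syne2, which encodes the nuclear envelope protein nesprin-2. At an unadjusted p under 0.05 there were 3547 (15.4%), more than the share of 0.05 met on average if no gene differed. Neither number is a count of the genes that differ. Genes on an array are not independent, and genotype cannot be told apart from position on the slide. Commd1 itself had 2.89 and 2.85 at 24 h against 2.73 and 2.70 at 3 h in wildtype cells and did not pass the test between the times (adjusted p = 0.605).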

How the data were processed

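Total RNA of 12 cultures, 4 of which are compared here, was labelled with Cy3 and hybridised to 1-colour Agilent arrays. Scanning used Agilent Feature Extraction 10.7.3.1, per the submitters' processing notes, and the deposited intensity of each spot (gProcessedSignal) is background-subtracted, per the file headers. The deposited log2 value table was set against the same arrays: it equalled the log2 intensity minus a constant for 99.4% to 99.9% of detected probes (tolerance 0.01), with dim probes at a floor, and it was used as an alternative.

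Control spots and outlier flags were left out, spots of a probe were averaged, and log2 signals were taken relative to each array's 75th percentile. A probe was kept where 1 group or more had it well above background on both arrays, which held for 28426 of 39429 probes. The brightest probe stood for each of 22975 genes, of which 4567 had several probes that disagreed in direction in 148. Probes were named through RefSeq accessions (26526), symbols (3781) or synonyms (714), and 8408 kept the file's name. All 12 arrays entered 1 limma fit of group means (limma 3.58.1, R 4.3.3; residual df 6, prior df 2.23). Below background, the fold is taken on each array against the lowest signal well above background, or against the probe's own reading where that is higher.

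Genes named are the 15 largest changes each way, up to 4 members per direction and list, a fixed set, genes past the test between genotypes, and any list member where its list is described. A few genes that these rules take, and that the counts, medians and sums include, are not reported here. The members and the 35 lists were chosen with earlier results of these data known. Replicate numbers pair the samples, since the labels give both times the same mouse. Deviations of the same mouse from the group means correlated between the times with r = 0.146 in wildtype and 0.122 in knockout cells. The code was checked on simulated data. Alternatives were background correction, scaling, probe filters, probe averaging, the mouse as a block, fewer arrays in the fit, the deposited table and leaving out each array, and, chosen after seeing the data, rescaling to the mean spike-in slope.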

Additional observations from a re-analysis of the deposited data

Results flagged for a closer look

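Syne2, which encodes nesprin-2 (2 probes at mm9 chromosome 12, the brighter at 77211828 to 77211887), was the single gene that passed the test of the difference between the genotypes. That test compared the change between 3 h and 24 h at an adjusted p under 0.05, and other genes may differ without passing it. Its levels were -5.87 and -5.62 at 24 h against -1.02 and -1.12 at 3 h in knockout cells and -4.15 and -4.05 at 24 h against -1.33 and -1.36 at 3 h in wildtype cells, so the times do not overlap in either genotype. It had a change of -4.67 in knockout and -2.76 ± 0.12 in wildtype cells, a difference of -1.92 ± 0.17 (limma, adjusted p = 0.0493). The adjusted p of Syne2 ranged from 0.00916 to 0.226 over the alternatives. The call was lost with normexp (-0.88), no probe filter, the mean over probes (-1.24), the mouse as a block, only the compared groups and rescaling to a common spike-in slope (-1.74). It was also lost without knockout 3 h replicate 1 (adjusted p = 0.0714) and without wildtype 24 h replicate 1 (adjusted p = 0.0649).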

How the results depend on the processing

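The counts of genes higher and lower at 24 h in wildtype cells stayed within 1.5 times of 5909 and 6170 under every alternative run, and those in knockout cells likewise. With the mouse as a block 6048 wildtype genes were higher and 6375 lower. The block ended the calls of Il1rn (0.81) and Irgm1 (-0.36), gave one to Mcm5 (0.83), left 0 genes called in the test between genotypes, and changed no other call among the genes followed. Of 273 named genes, 233 kept direction and side of the threshold under every alternative that could be run on them. With a gene's probes averaged Herc6 became 0.089, Tpx2 -0.17 and Srebf2 -0.26. After rescaling to the mean spike-in slope Cox5a became -0.094, Ogdh -0.00879, Srebf2 -0.00259 and Prdx1 -0.013. The test between genotypes called 0 genes lower with no probe filter, with the mean over probes, with only the compared groups and with rescaling to the spike-in slope. It called 2 genes higher and 8 lower with normexp, 4 and 9 with quantile normalization, 8 and 19 with only probes detected on all arrays, and 17 and 17 with the deposited table. Leaving out 1 array in turn it called 0 to 70 higher and 0 to 146 lower, with 70 and 146 without knockout 3 h replicate 2 and 70 and 127 without knockout 24 h replicate 1. With normexp background correction list medians became -1.497 for cytokines, 0.70 for chemoattractant receptors, -0.16 for immediate early factors, -0.46 for arginine and lipid mediator enzymes, -1.503 for mitosis, -0.64 for ribosome biogenesis and -0.91 for alternative activation. With quantile normalization list medians became -1.76 for NF-kB, -0.12 for MAPK phosphatases, -0.36 for interferon signalling, 0.63 for antiviral genes, 0.55 for complement, -0.64 for arginine and lipid mediator enzymes, -0.34 for glycolysis, -0.054 for citric acid cycle and -1.68 for mitosis. With quantile normalization list medians also became 0.89 for DNA replication, -0.00552 for endoplasmic reticulum genes, 0.054 for heat shock, -0.021 for NRF2 genes, 0.53 for cell death, -0.065 for interleukin receptors, 0.025 for lysosome, -0.68 for matrix and adhesion and 0.45 for clock. With quantile normalization list medians also became 0.00322 for chromatin. With only probes detected on all arrays list medians became -1.40 for cytokines, -0.62 for chemokines, 1.48 for chemoattractant receptors, -0.43 for immediate early factors, -0.13 for MAPK phosphatases, -0.36 for arginine and lipid mediator enzymes, 0.34 for cholesterol efflux, -0.70 for matrix and adhesion and 0.22 for purine receptors. With only probes detected on all arrays list medians also became 0.092 for myeloid factors. With no filter on dim probes list medians became -0.20 for immediate early factors, -0.64 for arginine and lipid mediator enzymes, -0.41 for scavenger receptors and -0.41 for alternative activation. With averaged probes list medians became -2.69 for cytokines, -1.99 for NF-kB, 0.019 for Toll-like receptors, 0.53 for antiviral genes, 0.81 for MHC class I, -0.96 for arginine and lipid mediator enzymes, -0.75 for ribosome biogenesis, -0.15 for heat shock and -0.61 for alternative activation. With averaged probes list medians also became -0.20 for myeloid factors. With the deposited value table list medians became -2.68 for cytokines and -1.61 for mitosis. With rescaling to the mean spike-in slope list medians became -3.08 for cytokines, -1.56 for chemokines, 1.38 for chemoattractant receptors, -2.26 for NF-kB, -0.36 for MAPK phosphatases, -0.27 for Toll-like receptors, -0.82 for interferon signalling, -0.00813 for antiviral genes and -0.047 for GBP and IRG genes. With rescaling to the mean spike-in slope list medians also became 0.73 for MHC class II, 0.32 for MHC class I, 0.24 for complement, -1.20 for arginine and lipid mediator enzymes, -0.77 for glycolysis, -0.62 for citric acid cycle, -1.28 for sterol synthesis, 0.33 for cholesterol efflux and -2.07 for mitosis. With rescaling to the mean spike-in slope list medians also became 0.58 for DNA replication, -0.77 for ribosome biogenesis, -0.38 for endoplasmic reticulum genes, -0.71 for heat shock, -0.67 for NRF2 genes, -0.072 for FOXO and p53 targets, 0.053 for cell death, -0.58 for interleukin receptors and -0.75 for scavenger receptors. With rescaling to the mean spike-in slope list medians also became -0.50 for lysosome, -1.43 for alternative activation, -1.07 for matrix and adhesion, 0.37 for purine receptors, 0.80 for clock and -0.32 for chromatin. Leaving out 1 array in turn gave list medians of -1.96 to -1.80 for NF-kB, -0.45 to -0.22 for immediate early factors, -0.50 to -0.39 for interferon signalling, 0.047 to 0.26 for GBP and IRG genes, 0.73 to 0.87 for MHC class II, -0.26 to -0.20 for citric acid cycle and 0.72 to 0.88 for DNA replication. Leaving out 1 array in turn gave list medians also of -0.17 to -0.038 for endoplasmic reticulum genes, 0.033 to 0.16 for FOXO and p53 targets, -0.94 to -0.61 for matrix and adhesion, 0.29 to 0.52 for clock and -0.11 to 0.059 for myeloid factors. In the only-detected and no-filter settings the lists hold fewer or more genes, and for the other settings the cause was not tested. Signal over background limits the folds of dim genes, which normexp correction with an offset makes smaller.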
